A study of Mus musculus with 6 samples.

Results

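Aminoacyl-tRNA synthetases were examined in isolated lung endothelial cells (iLECs) of mice with an induced endothelial deletion of *Atp6ap2*. The genes were chosen by symbol, as the letter of an amino acid followed by "ars" with or without 1 or 2 at its end, together with *Farsa* and *Farsb*, the genes of both subunits of the cytosolic phenylalanine enzyme. This rule found 36 of the 24972 genes in the deposited table. Symbols ending in 2 (17 genes) were taken as the mitochondrial enzymes and the others (19 genes) as the cytosolic ones, with *Gars* and *Kars*, whose products serve both compartments, among the cytosolic genes. *Eprs*, which encodes the bifunctional enzyme for glutamate and proline, was not found by the rule and its values are given separately.

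The study compared 3 control with 3 *Atp6ap2* iECKO samples, 1 RNA-Seq library each, at postnatal day 7 (P7). The labels give the genotype of controls as *Atp6ap2* fl/Y and that of the other group as *Atp6ap2* fl/Y with *Cdh5*-CreERT2, a tamoxifen-inducible Cre recombinase under the promoter of the endothelial gene *Cdh5*. All 6 samples carried the floxed allele and all pups received 100 μg tamoxifen on each of days 1 to 3, so that a role of the Cre transgene and one of the deletion it makes cannot be told apart. The cells were CD31-positive cells taken from digested lung with magnetic beads, and the labels name C57BL/6 as the strain, whereas the study's methods describe a mixed background. ATP6AP2, also called the prorenin receptor, is an accessory subunit of the vacuolar proton pump. The table holds normalized counts, that is, estimated read counts that the authors had scaled between libraries.

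An aminoacyl-tRNA synthetase joins an amino acid to its tRNA and so supplies the ribosome with charged tRNA. Cytosolic and mitochondrial translation use separate enzymes for most amino acids, and all of these enzymes are encoded in the nucleus. Class I and class II enzymes have unrelated catalytic folds, and several cytosolic enzymes are held together in a multisynthetase complex by the scaffold proteins encoded by *Aimp1*, *Aimp2* and *Eef1e1*. In the endothelium, several synthetases are also known for roles outside translation. The serine enzyme restrains *Vegfa* transcription in the nucleus, and secreted forms of the tyrosine, tryptophan and threonine enzymes act on vessel growth.

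Facts of the whole series bear on every value. *Atp6ap2* itself had normalized counts of 7490.2, 5815 and 5681 in controls 1 to 3 and of 4219.9, 2336 and 1982 in *Atp6ap2* iECKO 1 to 3. The groups did not overlap, and *Atp6ap2* iECKO 1 retained the most of the transcript (log2 fold change -1.22, standard error 0.26, adjusted *P* = 0.0306 from limma, the linear model fitted to all genes). *Xist*, the RNA of the inactive X chromosome, was between 37704 and 47487 in controls 1 and 2 and *Atp6ap2* iECKO 1 and 3, and was 31.7 and 19.3 in control 3 and *Atp6ap2* iECKO 2. The 4 libraries with high *Xist* thus go against the fl/Y label, and both groups hold 2 libraries with *Xist* and 1 without. The study's methods say that pups of both sexes were used, and the study defines both groups as fl/Y males and fl/fl females. Relative depth, read from the step between the lowest values, was 1.00 to 1.04 in controls and 1.25 to 1.55 in *Atp6ap2* iECKO libraries. Of 15 endothelial markers, 1 was lower and 0 were higher at an adjusted *P* below 0.05 (limma), with summed levels of 409243 to 538467 in controls and 406049 to 480407.6 in *Atp6ap2* iECKO. At this threshold 4.97% of the 14456 genes tested were lower and 3.28% higher. Fibroblast markers fell in 12 of 14 tested and mural markers in 10 of 15, with medians of -1.50 and -1.52 on the log2 scale, and with between 6 and 12 of each when a library was left out (fewest without control 3 and without *Atp6ap2* iECKO 3 for both lists, and without *Atp6ap2* iECKO 2 for the mural one). The summed fibroblast level was 94523 to 145601 in controls and 33501 to 47758 in *Atp6ap2* iECKO, with *Lum* at 0 in some library, and the summed mural level was 15070.3 to 22779 and 6216 to 7829.8. The part of these cells, of depth and of *Xist* in the results that follow was not tested, and in bulk samples a change in cell makeup and a change in RNA per cell cannot be told apart.

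Transcripts of 10 cytosolic synthetase genes were higher in *Atp6ap2* iECKO than in control iLECs, while 9 did not pass the test. All 36 genes passed the filter on low values (10 or more normalized counts in 3 or more of the libraries), as did 14456 genes in all. Of the 19 cytosolic genes, 10 rose and 0 fell at an adjusted *P* below 0.05 (limma, Benjamini-Hochberg over the 14456 genes), where 3.28% of all genes tested rose and 4.97% fell. The median log2 fold change of the 19 genes was 0.46, against 0.0049 for all genes tested. At an unadjusted *P* below 0.05 there were 17 higher and 0 lower, where 11.6% and 12.3% of all genes met this in either direction. The 3 *Atp6ap2* iECKO values lay above all 3 control values for 17 of the 19 genes and below them for 1, where this was so for 14.7% and 15% of all genes. The number of calls rested on single libraries, as it was 3 without control 1, 5 without control 2, 0 without control 3, 0 without *Atp6ap2* iECKO 2 and 0 without *Atp6ap2* iECKO 3, while the number of genes called higher in the whole table also changed, to between 28 and 461. The direction did not rest on them, since 17 of 19 genes were higher in each of the 6 fits that left out a library.

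**Figure D1:**
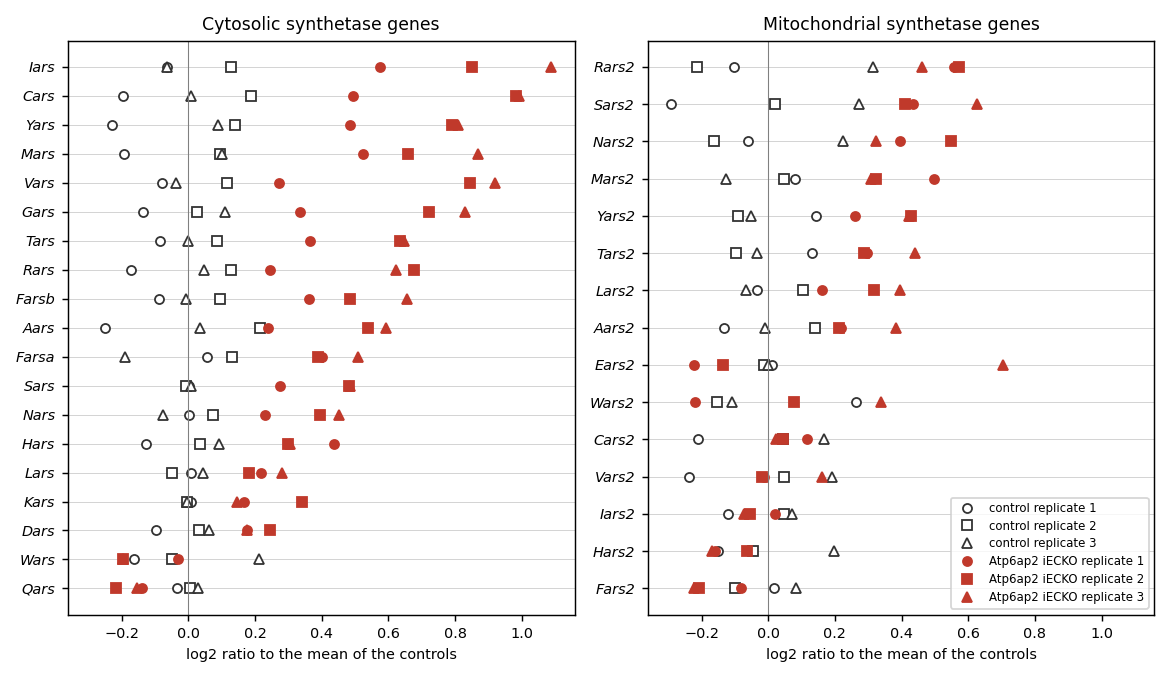
Log2 ratio of each synthetase gene to the mean of the controls in each library (x axis, 1 having been added to each normalized count), with open symbols for the 3 controls, red symbols for the 3 Atp6ap2 iECKO libraries and the shape giving the replicate number. For 17 of 19 cytosolic genes all red symbols lie to the right of all open ones, and the mitochondrial gene Pars2, with values of 2.55 to 22.7, is left out for its spread. The plot shows 15 of the 17 mitochondrial genes.

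Among class I cytosolic genes, 5 of 9 rose, where 3.28% of all genes tested did, and the median log2 fold change was 0.68. *Iars*, which encodes the isoleucine enzyme, had the smallest adjusted *P* of all 36 genes. Its normalized counts were 1079, 1231 and 1079 in controls and 1681, 2033 and 2400.4 in *Atp6ap2* iECKO, a log2 fold change of 0.84 (1.79-fold, standard error 0.135, adjusted *P* = 0.0141, limma). Its lowest *Atp6ap2* iECKO value stood well above its highest control value. *Cars*, for cysteine, had 446, 583 and 514 in controls and 721, 1012 and 1018 in *Atp6ap2* iECKO (log2 fold change 0.82, standard error 0.166, adjusted *P* = 0.0270, limma). *Atp6ap2* iECKO 1 was the lowest of its group here, as it was for *Iars*. *Yars*, for tyrosine, had 559, 722 and 696 against 917, 1135 and 1148, a difference of 0.69 on the log2 scale (standard error 0.138, adjusted *P* = 0.0259, limma). *Mars*, for methionine, which every new protein begins with, had 632, 772 and 775 against 1040.3, 1141 and 1322 (0.68, standard error 0.128, adjusted *P* = 0.0218, limma). In both genes control 1 was the lowest of all 6 libraries and no value of one group reached the other. The *Mars* gene model overlaps that of *Ddit3* on the opposite strand by 68 bases, and the library kit does not mark strand, so reads there cannot be assigned to either. *Vars*, for valine, had 1281, 1466 and 1320.0 against 1634, 2433 and 2563 (0.68, standard error 0.167, adjusted *P* = 0.0466, limma), with *Atp6ap2* iECKO 1 nearer to the controls than to the other 2 libraries of its group.

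The 4 other class I cytosolic genes did not pass. *Rars*, for arginine, had 808, 995 and 941 against 1081, 1456 and 1405 (log2 fold change 0.52, adjusted *P* = 0.0615, limma). *Lars*, for leucine, whose product also senses leucine for mTORC1, had 1306, 1254 and 1339 against 1510.3, 1472 and 1578 (0.23, adjusted *P* = 0.127, limma). For both, every *Atp6ap2* iECKO value was above every control value. *Qars*, for glutamine, went the other way without overlap, with 1418, 1456 and 1480.0 in controls and 1318, 1249.6 and 1303 in *Atp6ap2* iECKO (-0.17, 95% confidence interval -0.35 to 0.01, adjusted *P* = 0.227, limma). *Wars*, for tryptophan, was the only cytosolic gene whose groups overlapped, with 2302, 2493 and 2983 in controls and 2521, 2248 and 2248 in *Atp6ap2* iECKO (-0.14, interval -0.40 to 0.11, adjusted *P* = 0.491, limma). *Wars* is known as a gene induced by interferon gamma, unlike most synthetases. On a list of 20 tested genes of the interferon gamma response, 0 rose and 5 fell, where 4.97% of all genes fell (*Gbp4*, *Gbp2*, *Gbp7*, *Iigp1* and *Igtp*), with a median log2 fold change of -0.16. *Gbp4*, a guanylate-binding protein, had 3979, 3107 and 4188 in controls and 2263, 1871 and 2003 in *Atp6ap2* iECKO. The number that fell was between 1 and 5 when a library was left out, being 2 without control 3, 1 without *Atp6ap2* iECKO 2 and 2 without *Atp6ap2* iECKO 3.

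Of the 10 class II cytosolic genes, 5 rose, where 3.28% of all genes tested did. In all 10 every *Atp6ap2* iECKO value lay above every control value, as it did for 14.7% of all genes tested. *Gars*, for glycine, had 1938, 2166 and 2296 in controls and 2683, 3511 and 3786 in *Atp6ap2* iECKO (log2 fold change 0.63, standard error 0.136, adjusted *P* = 0.0323, limma). *Tars*, for threonine, had 932, 1051 and 988 against 1275, 1537 and 1550.5 (0.55, standard error 0.106, adjusted *P* = 0.0237, limma). In each, *Atp6ap2* iECKO 1 was the lowest of its group and the other 2 were close to each other. *Farsb* had 574, 651 and 607 against 785, 853 and 961 (0.50, standard error 0.112, adjusted *P* = 0.0360, limma). The *Farsb* gene model overlaps that of *Sgpp2* on the opposite strand by 2315 bases. *Farsa*, for the other subunit of the same enzyme, had 711, 749.6 and 599.7 against 903, 897 and 973 (0.43, standard error 0.112, adjusted *P* = 0.0552, limma). The subunit genes thus differed little in fold change while falling on either side of the threshold. *Sars*, for serine, had nearly equal controls at 2128, 2117 and 2138, and 2573, 2974 and 2979.9 in *Atp6ap2* iECKO (0.41, standard error 0.084, adjusted *P* = 0.0272, limma). *Nars*, for asparagine, had 2578, 2712 and 2446 against 3018, 3384 and 3528 (0.36, standard error 0.088, adjusted *P* = 0.0461, limma), the smallest rise among the 10 called genes. The remaining *Aars* (alanine), *Hars* (histidine), *Kars* (lysine) and *Dars* (aspartate) were higher by 0.46, 0.35, 0.22 and 0.20 on the log2 scale, with adjusted *P* values of 0.0916, 0.0728, 0.154 and 0.183 (limma). The *Aars* gene model shares 1326 bases with that of *Exosc6* on the same strand.

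**Figure D2:**
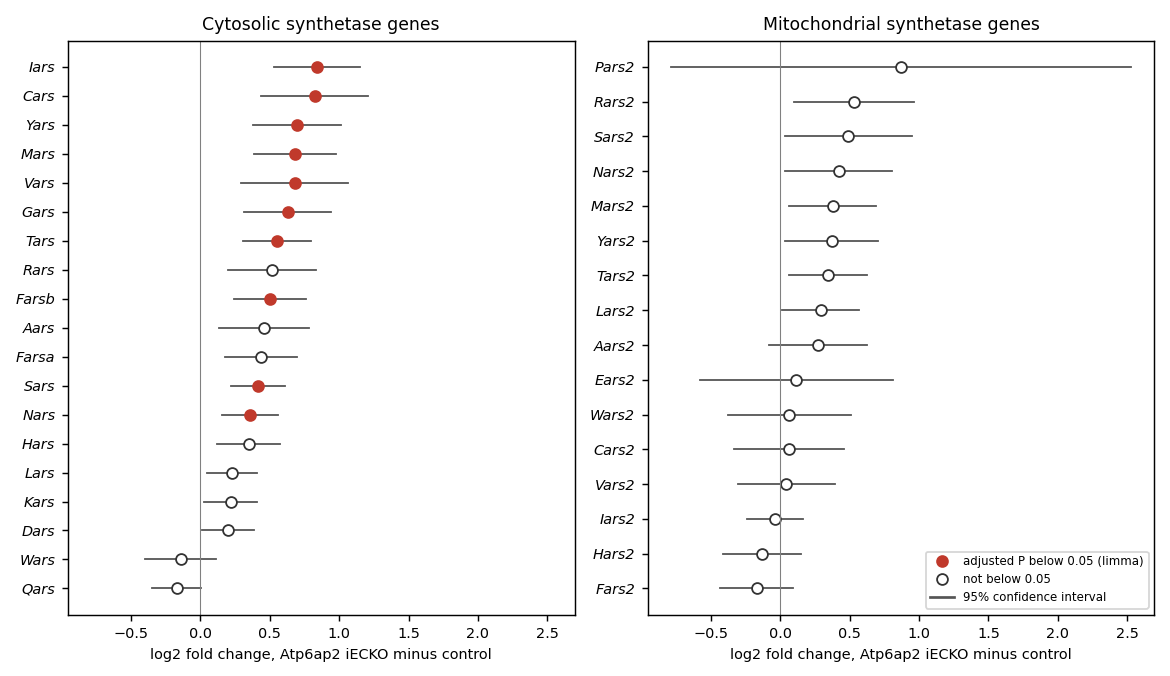
Log2 fold change of each synthetase gene (x axis, Atp6ap2 iECKO minus control, limma on 3 against 3 libraries) with its 95% confidence interval, filled where the adjusted P was below 0.05. Filled points occur among the cytosolic genes only (10 of 19), and among the 16 mitochondrial genes drawn Pars2 has the widest interval, from -0.79 to 2.53.

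The 10 called genes lie on 10 different chromosomes. *Iars* is on chromosome 13 of GRCm38 from 49682100 to 49734267, *Cars* on chromosome 7 from 143557230 to 143600090 and *Yars* on chromosome 4 from 129189760 to 129219607. The size of the rise also varied by library. The median log2 ratio of the 19 genes to the control mean was -0.09, 0.09 and 0.03 in controls 1 to 3 and 0.27, 0.48 and 0.59 in *Atp6ap2* iECKO 1 to 3. *Atp6ap2* iECKO 1 was the lowest of its group in 13 of the 19 cytosolic genes (68.4%), against 37.4% of all genes tested. It was so in all 10 called genes, which were picked by the genotype difference in these same libraries. That library was also the lowest of its group for 75% of 32 genes of tRNA synthesis and processing, 63.8% of 47 genes of tRNA modification and 87.5% of 16 eIF2 kinase and regulator genes. It was so for 87.5% of 8 aminoacylation partners and 50% of 36 genes of the ATF4 list. Other shares were nearer to that of all genes, at 33.3% of the 9 uncalled cytosolic genes, 29.4% of the 17 mitochondrial genes and 33.3% of 9 genes of cytosolic elongation. *Atp6ap2* iECKO 1 also had the most *Atp6ap2* left. The median log2 ratio in *Atp6ap2* iECKO 1 to 3 was -1.37, -1.61 and -1.67 for fibroblast markers and -1.37, -1.41 and -1.70 for mural markers. The part of remaining *Atp6ap2* or of these cells in the order of the libraries was not tested. The summed normalized counts of the 19 genes were 24346, 26904 and 26486 in controls and 30843, 35308 and 36468 in *Atp6ap2* iECKO, or between 0.0848% and 0.1005% of a control library and between 0.113% and 0.139% of an *Atp6ap2* iECKO library.

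Because *Xist* separated the libraries of each group, the 19 cytosolic genes were also compared among the libraries that have it and among those that lack it. Among the 4 libraries with *Xist*, the median log2 fold change of the 19 genes was 0.43, close to that over all libraries, with 0 genes called where 1 gene was called in the whole table. Between the 2 libraries without *Xist*, control 3 and *Atp6ap2* iECKO 2, 17 of the 19 genes were higher in the latter and 2 lower, with no test possible. The difference ran from -0.41 for *Wars* to 0.98 for *Cars* on the log2 scale, with a median of 0.50. With the presence of *Xist* as a covariate, 7 of the 10 genes stayed below the threshold.

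In the multisynthetase complex, of its 7 members among the 19 genes (*Dars*, *Iars*, *Kars*, *Lars*, *Mars*, *Qars* and *Rars*), 2 rose (*Iars* and *Mars*) and the median log2 fold change was 0.23, whereas 8 of the 12 genes outside the complex rose and their median was 0.48. Of all genes tested, 3.28% rose. The difference between the genes inside and outside the complex was not tested. *Eprs*, the complex member that the rule does not match, had 2282, 2493 and 2055 in controls and 2501, 3095 and 3229 in *Atp6ap2* iECKO (0.37, adjusted *P* = 0.109, limma). Of the scaffold genes, *Aimp2* rose, from 227, 256 and 243 to 389.7, 365 and 463 (0.74, standard error 0.145, adjusted *P* = 0.0250, limma). *Eef1e1* had 188, 157 and 176 against 241, 263 and 262 (0.56, adjusted *P* = 0.0661) and *Aimp1* had 739, 776 and 704 against 835, 831 and 848 (0.18, adjusted *P* = 0.272, both limma). For each of these 3 genes the *Atp6ap2* iECKO values lay above all control values, as they did for 14.7% of all genes tested. The call of *Aimp2* held in 2 of the 6 fits that left out a library (without control 2 and without *Atp6ap2* iECKO 1), and its gene model overlaps that of *Eif2ak1* on the opposite strand by 1548 bases.

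Of the 17 mitochondrial genes, 0 were called by limma in either direction. At an unadjusted *P* below 0.05 there were 7 higher, where 11.6% of all genes were, and 14 had a positive log2 fold change, with a median of 0.28. For 8 genes every *Atp6ap2* iECKO value lay above every control value, as it did for 14.7% of all genes. Whether the mitochondrial genes as a group differed from the cytosolic ones was not tested. *Rars2*, for arginine, had 147, 136 and 197 in controls and 233, 235 and 218 in *Atp6ap2* iECKO (0.53, adjusted *P* = 0.132, limma). *Tars2*, for threonine, had 421, 359 and 376 against 472, 469.8 and 523 (0.34, adjusted *P* = 0.133, limma). In these genes no *Atp6ap2* iECKO value fell below a control value. *Sars2*, *Nars2*, *Mars2*, *Yars2*, *Lars2* and *Aars2* did not overlap either, with log2 fold changes of 0.49, 0.42, 0.38, 0.37, 0.29 and 0.27 and adjusted *P* values between 0.140 and 0.340 (limma). Among those that overlapped between groups were *Ears2* (0.12), *Wars2* (0.06), *Cars2* (0.06), *Vars2* (0.04), *Iars2* (-0.04), *Hars2* (-0.13) and *Fars2* (-0.17). *Pars2*, for proline, was low, at 2.55, 20.4 and 20.6 against 22.7, 21.9 and 17.5, and its log2 fold change of 0.87 came from control 1 (0.0035 without that library). *Ears2*, for glutamate, whose product also charges the mitochondrial glutamine tRNA as a first step, had 56.4, 60.0 and 108 in *Atp6ap2* iECKO around controls of 66.5, 65.4 and 65.9, so that 1 library stood apart. The median log2 ratio of the 17 genes was -0.10, 0.02 and 0.07 in controls and 0.22, 0.29 and 0.34 in *Atp6ap2* iECKO, and *Atp6ap2* iECKO 1 was the lowest of its group in 5 of 17 genes. These genes also had fewer normalized counts, with control means between 14.5 and 1387 against 514 to 2592 for the cytosolic genes, and the part of this in the number of calls was not tested.

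Set against each other within a library, the cytosolic and mitochondrial genes for the same amino acid gave a ratio that does not depend on the scaling of that library. The ratio was taken for 15 such pairs and 14 amino acids, with *Farsa* and *Farsb* each set against *Fars2*. The log2 ratio of *Iars* to *Iars2* was -0.24, -0.22 and -0.43 in controls and 0.26, 0.61 and 0.87 in *Atp6ap2* iECKO, a difference of 0.87. No control value reached an *Atp6ap2* iECKO value. These ratios are of counts not corrected for length. Per kb of exon *Iars* was above *Iars2* in controls too (255 against 208). This order rests on the annotated exon length, 4427 bases for *Iars* and 6670 for *Iars2*, taken over all coding transcripts of a gene. The ratio of *Cars* to *Cars2* was 1.60, 1.72 and 1.42 against 1.96, 2.52 and 2.55, a difference of 0.76. Those of *Farsb* and *Farsa* to *Fars2*, *Vars* to *Vars2* and *Hars* to *Hars2* differed by 0.67, 0.60, 0.64 and 0.48. These 6 ratios, 2 of which share *Fars2*, did not overlap between groups. Single genes lay above without overlap in 14.7% of all genes tested and below in 15%, and ratios of other gene pairs were not counted. For each of the 6 ratios the exact two-sided permutation test gave *P* = 0.1, the smallest that 3 against 3 samples allow. After adjustment over the 15 pairs it was 0.25, so that none could pass. The *Hars* and *Hars2* gene models overlap by 198 bases on opposite strands. The other 9 ratios overlapped, with differences from -0.21 for *Wars* to *Wars2* to 0.32 for *Yars* to *Yars2*. For *Rars*, *Nars*, *Lars* and *Sars* the difference was between -0.08 and -0.01, with overlapping groups.

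**Figure D3:**
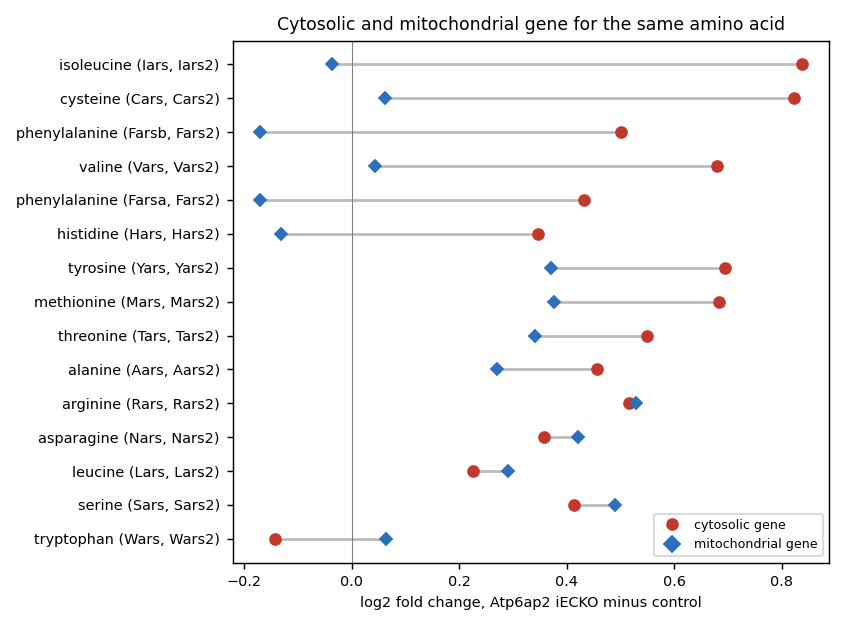
Log2 fold change (x axis, Atp6ap2 iECKO minus control) of the cytosolic gene (red circle) and the mitochondrial gene (blue diamond) for each amino acid, joined by a line and ordered by their difference. The difference runs from 0.87 for Iars and Iars2 to -0.21 for Wars and Wars2, and 10 of 15 pairs have the cytosolic gene to the right.

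Levels were compared between genes as normalized counts per kb of exon. In controls the cytosolic genes had between 159.6 and 903 per kb (median 376) and the mitochondrial genes between 4.76 and 208 (median 77.6). *Wars*, *Gars* and *Nars* were the most abundant in controls, at 903 ± 122, 896 ± 76.2 and 881 ± 45.5 per kb (SD, n = 3), and did not differ beyond their spread. *Kars* (821 ± 4.39) was next and also lay within the SD of *Wars*, and *Dars* (608 ± 35.1) followed. *Cars* (159.6 ± 21.2) was the lowest cytosolic gene and stood below the mitochondrial *Iars2* and *Fars2* (208 ± 14.7 and 204 ± 12.9 per kb). Its mean was also below that of *Hars2* (178 ± 22.6 per kb), but within the SD. In *Atp6ap2* iECKO, *Gars* reached 1398 ± 241 and *Nars* 1131 ± 89.7 per kb, while *Wars* had 815 ± 54.9, and *Cars* at 285 ± 52.7 stood above every mitochondrial gene. Of the other called genes, *Iars*, *Mars* and *Yars* went from 255, 245 and 227 per kb in controls to 460.4, 394 and 367 in *Atp6ap2* iECKO.

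Synthetase genes are known targets of ATF4, a transcription factor that is translated when a shortage of amino acids or another stress leads to phosphorylation of eIF2. A list of ATF4 and genes of the amino acid response was set beside them. Of 36 tested, 9 rose and 3 fell, where 3.28% and 4.97% of all genes did, and the median log2 fold change was 0.14. *Psat1*, of serine synthesis, had 395, 518 and 413 in controls and 1047, 1187 and 1342 in *Atp6ap2* iECKO (1.43, standard error 0.142, adjusted *P* = 0.00703, limma). *Asns*, which makes asparagine, had 205, 196 and 156 against 381, 497 and 703 (1.47, standard error 0.234, adjusted *P* = 0.0138, limma). In both the lowest *Atp6ap2* iECKO library was *Atp6ap2* iECKO 1. *Mthfd2* and *Shmt2*, of mitochondrial one-carbon metabolism, rose by 1.39 and 0.62, and *Slc1a5*, a glutamine carrier, by 0.86 (adjusted *P* 0.00831, 0.0133 and 0.0104, limma). *Cebpb*, a transcription factor that pairs with ATF4, fell from 1143, 1558 and 1474 to 711, 562 and 802 (-1.01, adjusted *P* = 0.0145, limma). *Atf4* transcript had 13986, 14918 and 13156 in controls and 14277, 14751 and 13883 in *Atp6ap2* iECKO, which overlapped (0.03, 95% confidence interval -0.17 to 0.23, adjusted *P* = 0.869, limma). *Ddit3*, the stress gene also called *Chop*, had 418, 444 and 413 against 439, 432 and 375 (-0.04, interval -0.31 to 0.24, adjusted *P* = 0.894, limma). The total of 12 called genes was 6 without control 3, 5 without *Atp6ap2* iECKO 2 and 5 without *Atp6ap2* iECKO 3, and 0 among the libraries with *Xist*.

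Of the eIF2 kinases, eIF2 and eIF2B subunits and GCN2 regulators, 4 of 16 tested rose (3.28% of all genes) and 0 fell (4.97%). They were *Eif2b5* (0.40), *Abcf2* (0.43), *Eif2s1* (0.47) and *Eif2ak3* (0.48), of which *Eif2ak3* encodes the kinase PERK and *Eif2s1* the alpha subunit of eIF2 that the kinases act on. This count was 2 without *Atp6ap2* iECKO 1 and 0 without any of the other 5 libraries. *Myc*, a transcription factor that drives growth genes, rose from 803, 828 and 545 to 1228, 1172 and 1385 (0.82, standard error 0.167, adjusted *P* = 0.0274, limma), the only call among 10 genes of Myc and its regulators. *Myc* was below the threshold in 3 of the 6 fits that left out a library. Of 15 proliferation markers 12 rose, where 3.28% of all genes did, with a median log2 fold change of 0.97. That number was 8 without control 1, 7 without *Atp6ap2* iECKO 1, 15 without control 2 and 0 without control 3, *Atp6ap2* iECKO 2 or *Atp6ap2* iECKO 3. The part of *Myc*, *Atf4* or proliferation in the values of the synthetase genes was not tested.

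**Figure D4:**
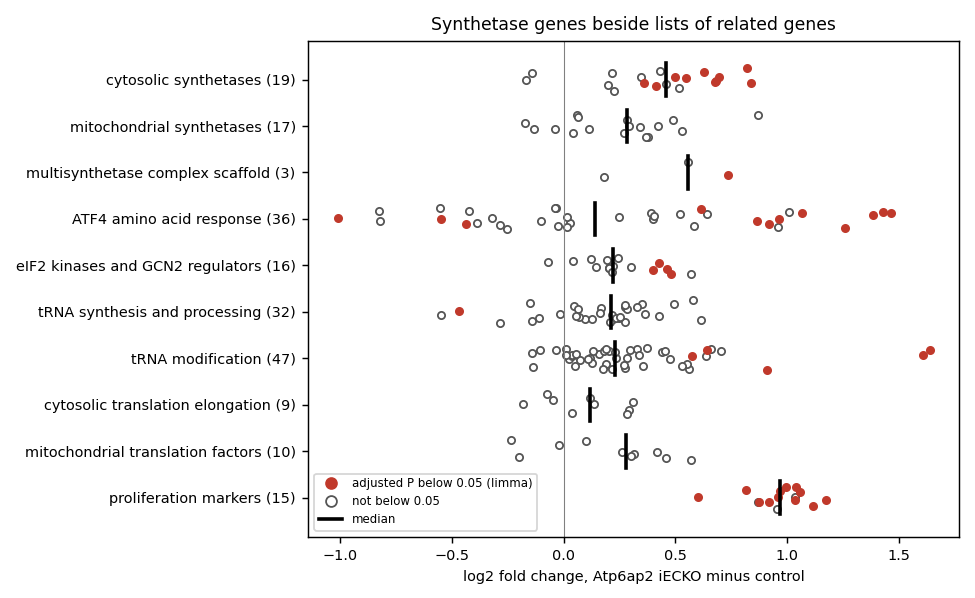
Log2 fold change (x axis, Atp6ap2 iECKO minus control) of each tested gene in the synthetase groups and in lists of related genes, with the number of genes in brackets, filled where the adjusted P was below 0.05 and with a black bar at the median. The cytosolic synthetases have a median of 0.46 and the mitochondrial ones of 0.28, and the genes of the ATF4 amino acid response spread from -1.01 to 1.47.

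The promoters of the synthetase genes are shown because 10 of the cytosolic genes rose and because the response to amino acid shortage is known to act through short C/EBP-ATF sites. Windows of 250 bases before to 50 bases after the start were taken from RefSeq (GRCm38.p6) for 26 of the 36 genes. The composite site TGATGCAA, searched on both strands, occurs in 294 of 32851 windows of the same length (0.895%). Of the members with a window it occurs in 4 of 12 cytosolic genes (*Aars*, *Iars*, *Tars* and *Yars*) and 0 of 14 mitochondrial genes. The looser TGATGNAA, which contains it, occurs in 3.97% of all windows and adds *Gars*, and also occurs in the window of *Asns*. The following 30-base sites show 5 of these matches in capitals, each on the strand that carries TGATGNAA.
Iars (chr13:49682126-49682155, minus strand): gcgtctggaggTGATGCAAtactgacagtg
Tars (chr15:11399655-11399684, plus strand): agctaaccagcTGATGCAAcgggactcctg
Yars (chr4:129189895-129189924, plus strand): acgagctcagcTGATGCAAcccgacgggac
Gars (chr6:55037960-55037989, minus strand): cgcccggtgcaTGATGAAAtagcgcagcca
Asns (chr6:7693214-7693243, minus strand): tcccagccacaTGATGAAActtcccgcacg
Of the 7 called cytosolic genes with a window, 3 hold TGATGCAA and 4 hold TGATGNAA, and *Aars*, which holds TGATGCAA, was not called. The E-box CACGTG, to which Myc can bind, occurs in 7.15% of all windows and in *Aars*, *Farsb*, *Iars*, *Tars* and *Ears2*.

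The stretch before the start is given in the direction of the gene for *Gars*, *Iars* and *Tars*, which rose, with matches to TGATGNAA or CACGTG in capitals. On this strand a match to TGATGNAA may read as its reverse complement.
Gars (chr6:55037841-55038000, plus strand): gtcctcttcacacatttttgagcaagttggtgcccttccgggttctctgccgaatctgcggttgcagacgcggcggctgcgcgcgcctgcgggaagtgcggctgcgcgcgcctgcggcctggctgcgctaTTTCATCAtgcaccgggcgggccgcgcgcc
Iars (chr13:49681970-49682099, plus strand): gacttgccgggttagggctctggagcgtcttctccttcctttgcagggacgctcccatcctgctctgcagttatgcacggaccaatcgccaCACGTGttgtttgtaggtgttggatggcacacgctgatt
Tars (chr15:11399666-11399818, minus strand): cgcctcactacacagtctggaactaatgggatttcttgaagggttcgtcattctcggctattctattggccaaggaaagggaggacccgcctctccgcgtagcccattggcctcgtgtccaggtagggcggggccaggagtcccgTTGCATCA
In *Gars* the capitals mark TTTCATCA, in *Iars* the E-box CACGTG and in *Tars* TTGCATCA at the end of the stretch. The site of *Iars* given above begins after its start and is not part of this stretch. A match to these letters is a description of the sequence, and binding was not measured.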

How the data were processed

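The authors deposited 1 table of normalized counts, a signal scaled between libraries, for 24972 genes in 6 libraries; per the labels and methods, TruSeq v2 mRNA libraries were sequenced, aligned to mm10 and quantified with BaseSpace tools. The labels call the values raw counts, but many hold decimals, and each library's median ratio to the geometric mean was the same (1.0036). The number of reads is therefore unknown, and no counting interval is given. Totals were between 26243878 and 28725799.

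The 14456 genes reaching 10 in 3 or more libraries entered a single limma fit (version 3.58.1, R 4.3.3) of log2(value + 1) on genotype, without covariates and with a mean-variance trend. Benjamini-Hochberg adjustment covered all of these genes (threshold 0.05). Fold changes are on this scale. The test was checked on simulated data, where most seeded changes of the sizes reported for the synthetase genes were not called, so that a gene that was not called is not shown to be unchanged. Ratios used an exact permutation test. The study calls the samples of a group biological replicates and does not say whether animals were pooled. Exon lengths and overlaps came from GENCODE M21 (GRCm38) and promoters from RefSeq. Exon length was that of all exons of a gene's basic protein-coding transcripts merged, which can exceed the length of the transcript expressed.

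The members and gene lists were chosen with earlier results of these data known. Named were 35 of the 36 members (1 mitochondrial gene enters the counts and medians and is otherwise not reported here), *Eprs*, *Atp6ap2*, the scaffold genes, *Atf4*, *Ddit3*, *Asns* and *Myc*, and at most 6 called genes of each list by adjusted *P*. Alternatives were 2 scalings, 2 filters, 2 pseudocounts, 2 variance models, 2 thresholds, replicate and *Xist* covariates, subsets of libraries by *Xist* and each library left out.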

Additional observations from a re-analysis of the deposited data

How the results depend on the processing

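Among the 19 cytosolic genes, 17 were higher in *Atp6ap2* iECKO under every alternative tried, and the 10 calls fell to 0 at an adjusted *P* below 0.01, to 0 without a mean-variance trend (limma, where 69 genes in the whole table were called higher and 235 lower), to 0 with only the libraries that have *Xist*, and to between 0 and 11 when a library was left out. With the replicate block, 12 cytosolic genes were called. Same-numbered libraries deviated together by r = 0.25, 0.11 and 0.08, and differently numbered ones by -0.21 to 0.10. Each *Atp6ap2* iECKO library correlated best with the control of its number, while control 3 correlated best with *Atp6ap2* iECKO 2 (0.10). Whether the numbers stand for pairs cannot be told from these values, and the main fit took none. The other settings gave between 7 and 14 calls. Of 170 values of the 10 called genes, 103 stayed below the threshold and 67 did not, with adjusted *P* values between 0.00804 and 0.319. The mitochondrial genes gave 0 calls in every setting. The 12 calls of the ATF4 list fell to 4 without a trend, to 0 with only the libraries that have *Xist*, and to between 5 and 13 when a library was left out. This list's alternatives, and the pair without *Xist*, were chosen after seeing the data.

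Directions that turned were those of genes near 0. Leaving out a library gave log2 fold changes of -0.044 to 0.14 for *Cars2*, -0.18 to 0.28 for *Ears2*, -0.076 to 0.14 for *Vars2* and -0.072 to 0.21 for *Wars2*. *Iars2* had 0.004 with library size scaling and 0.0087 with only the libraries that have *Xist*. For the ratios to the mitochondrial gene, the difference was -0.15 to 0.16 for *Rars*, -0.21 to 0.054 for *Nars* and -0.21 to 0.070 for *Sars* when a library was left out, and 0.0064 for *Rars* with a pseudocount of 10. The cause of these changes was not tested.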

Other observations

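Among 47 tested genes that modify tRNA, 5 rose and 0 fell, where 3.28% and 4.97% of the 14456 genes tested did. The median log2 fold change was 0.23 and 43 of 47 were above 0, as were 7323 of all genes tested. *Mettl1*, the methyltransferase that makes m7G in tRNA, had 39.4, 46.9 and 49.4 in controls and 117, 145 and 170.0 in *Atp6ap2* iECKO (1.64, standard error 0.241, adjusted *P* = 0.0113, limma). *Wdr4*, its partner subunit, had 368, 395 and 445 against 594, 654 and 635 (0.64, adjusted *P* = 0.0206, limma). Neither gene's groups overlapped. *Trmt61a*, *Pus7* and *Nsun2*, which encode an m1A methyltransferase subunit, a pseudouridine synthase and an m5C methyltransferase, rose by 1.61, 0.91 and 0.58 on the log2 scale. The number that rose was 4 without control 1, 4 without control 2, 3 without control 3, 5 without *Atp6ap2* iECKO 1 and 0 without *Atp6ap2* iECKO 2 or *Atp6ap2* iECKO 3.

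Other steps around the synthetases gave few calls. Of 32 tested genes of RNA polymerase III and tRNA processing, 0 rose and 1 fell, which is no larger a share than the 4.97% of all genes that fell. It was *Hsd17b10*, a subunit of mitochondrial RNase P, with 705, 645 and 737 in controls and 539, 476 and 490.5 in *Atp6ap2* iECKO (-0.47, adjusted *P* = 0.0396, limma), and it was called in 0 of the 6 fits that left out a library. By limma, 0 of 9 tested genes of cytosolic elongation and termination, 0 of 10 mitochondrial translation factors, 0 of 8 partners and proofreading enzymes of aminoacylation, and 0 of 5 synthetase relatives were called, with 3, 3, 2 and 2 higher at an unadjusted *P* below 0.05. Their median log2 fold changes were 0.12, 0.28, 0.07 and 0.37. Of all genes tested, 11.6% were higher at an unadjusted *P* below 0.05 (limma). Of the remaining markers, 1 of 15 epithelial genes rose, where 3.28% of all genes tested did. By limma, 0 of 14 leukocyte genes were called in either direction. Both lists varied within groups. The summed epithelial level was 34709, 31053 and 78316 in controls 1 to 3 and 45642, 37891 and 38081 in *Atp6ap2* iECKO 1 to 3. The summed leukocyte level was 12371, 7315 and 11655 in controls and 13593, 5901 and 15917 in *Atp6ap2* iECKO. The part of these cells in the synthetase values was not tested.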
